A study of Homo sapiens with 42 samples.

Results

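Solute carriers are membrane proteins that move small molecules such as amino acids, sugars, metal ions, nucleotides and vitamins across the plasma membrane and the membranes of organelles. Each gene symbol begins with SLC and a family number, and the families are grouped by what they carry. The genes described here were the protein-coding genes of GENCODE release 29 whose symbol is SLC followed by a digit, 375 of 19969 protein-coding genes. Of these, 373 had an entry in the deposited tables, and between 115 and 123 had no read in any library of a table. A gene was described further in a table when its reads averaged 20 or more over that table's libraries, which left 95 members among the LM2 and Par libraries, 100 among the knockdown libraries and 88 among those of the T4 series. In all, 106 members were measured in at least 1 table and 82 in all 3. All of them passed the filter on low counts. Shares given for all genes are of every gene that passed this filter, with no minimum mean of 20. Members were thus held to a stricter minimum than the genes beside them. Of the solute carrier genes, 140 passed the filter among the LM2 and Par libraries, 157 among the knockdown libraries and 134 in the T4 series.

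The study compared where transcripts end (alternative polyadenylation) in breast cancer cells of high and low metastatic ability. All 42 libraries, in 14 groups of 3, came from MDA-MB-231, a human triple-negative breast cancer line, or derivatives of it. Reads were from QuantSeq REV, which sequences from the poly(A) end of each RNA, so that a transcript gives about 1 read whatever its length. Par cells are the poorly metastatic line and LM2 cells a derivative that is highly metastatic to the lung, and nuclear and cytoplasmic RNA was sequenced for each. In gHNRNPC cells, HNRNPC, a nuclear RNA-binding protein, was knocked down, and gCTRL cells were the control. Both are labelled poorly metastatic, and both also gave nuclear and cytoplasmic RNA. How the knockdown was made is not given in the sources used here. In the T4 groups, total RNA came from LM2 cells given T4 at 3 µM in DMSO, or DMSO alone, for 6 h, and harvested then or, after a change of medium, at 24 or 72 h. T4 is known here only by that name. The labels do not say that the libraries of a group came from separate cultures, so every p-value speaks of the spread among these libraries, which may be technical.

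As background, amino acid transporters work in groups. SLC3A2 (the 4F2 heavy chain, CD98) brings light chains such as SLC7A5 (LAT1, large neutral amino acids) and SLC7A11 (xCT, cystine for glutamate) to the cell surface, while SLC1A5 and SLC38A2 import glutamine and other neutral amino acids. Cells short of amino acids translate the transcription factor ATF4, which raises genes of amino acid synthesis and several of these transporters by binding a response element near their starts. Most plasma membrane carriers are made at the endoplasmic reticulum, which is continuous with the nuclear envelope, whereas SLC25 proteins are made in the cytosol and enter the inner mitochondrial membrane.

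The promoters of the 4 amino acid transporters called higher in both fractions after HNRNPC knockdown (SLC3A2, SLC7A5, SLC1A5 and SLC38A2) are shown for the response element core TGATGNAA (TTNCATCA on the other strand). SLC7A1 and SLC38A1, called in the cytoplasm and not in the nucleus, are shown because they were the other amino acid transporters whose window holds the core. The windows run from 250 bases before to 50 bases after the start of transcription, 5′ to 3′ on the gene's own strand, from RefSeq on GRCh38.p14 (1 start a gene), with the match in capitals. SLC3A2 is at chr11:62881449-62881748 on the plus strand. SLC7A5 (chr16:87869458-87869757), SLC1A5 (chr19:46788545-46788844), SLC38A2 (chr12:46372724-46373023), SLC7A1 (chr13:29595639-29595938) and SLC38A1 (chr12:46266467-46266766) are on the minus strand.
SLC3A2: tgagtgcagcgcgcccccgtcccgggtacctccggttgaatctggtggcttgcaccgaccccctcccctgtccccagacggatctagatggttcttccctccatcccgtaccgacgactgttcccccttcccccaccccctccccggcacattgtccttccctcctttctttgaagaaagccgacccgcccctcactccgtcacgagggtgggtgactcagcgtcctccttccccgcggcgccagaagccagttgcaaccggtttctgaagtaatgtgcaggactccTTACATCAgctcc
SLC7A5: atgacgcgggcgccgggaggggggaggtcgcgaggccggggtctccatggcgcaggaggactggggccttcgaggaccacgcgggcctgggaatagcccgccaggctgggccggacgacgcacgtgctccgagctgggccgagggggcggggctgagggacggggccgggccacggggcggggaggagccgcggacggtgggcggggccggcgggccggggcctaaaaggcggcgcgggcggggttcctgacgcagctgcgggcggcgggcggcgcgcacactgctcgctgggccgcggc
SLC1A5: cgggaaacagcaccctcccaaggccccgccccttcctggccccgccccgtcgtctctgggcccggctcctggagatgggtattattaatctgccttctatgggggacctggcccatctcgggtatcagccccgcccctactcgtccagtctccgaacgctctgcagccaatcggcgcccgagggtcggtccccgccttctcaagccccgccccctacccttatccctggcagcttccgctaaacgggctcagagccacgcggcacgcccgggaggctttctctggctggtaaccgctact
SLC38A2: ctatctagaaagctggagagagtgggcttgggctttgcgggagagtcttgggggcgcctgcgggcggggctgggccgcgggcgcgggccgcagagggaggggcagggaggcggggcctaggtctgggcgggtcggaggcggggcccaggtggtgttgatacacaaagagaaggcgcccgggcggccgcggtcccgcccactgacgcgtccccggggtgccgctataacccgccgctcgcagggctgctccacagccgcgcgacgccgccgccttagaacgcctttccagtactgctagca
SLC7A1: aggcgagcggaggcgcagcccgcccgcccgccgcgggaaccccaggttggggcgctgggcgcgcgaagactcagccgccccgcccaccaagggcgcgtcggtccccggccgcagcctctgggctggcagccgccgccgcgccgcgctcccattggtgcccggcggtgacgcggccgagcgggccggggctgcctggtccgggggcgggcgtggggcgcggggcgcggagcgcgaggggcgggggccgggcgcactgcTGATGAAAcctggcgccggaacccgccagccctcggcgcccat
SLC38A1: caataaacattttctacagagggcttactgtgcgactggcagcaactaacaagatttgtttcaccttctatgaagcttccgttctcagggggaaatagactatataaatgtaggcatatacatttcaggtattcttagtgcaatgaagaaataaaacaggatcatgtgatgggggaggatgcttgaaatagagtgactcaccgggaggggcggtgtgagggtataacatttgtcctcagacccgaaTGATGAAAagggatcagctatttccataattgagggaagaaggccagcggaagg
The core began 37 bases after the start in SLC3A2, 7 bases after it in SLC7A1 and 4 bases before it in SLC38A1. SLC7A5, SLC1A5 and SLC38A2 had no match in this window, so that 1 of the 4 called in both fractions held the core. Of 35116 promoter windows, 1270 (3.62%) held the core on either strand. Of the 85 members of the knockdown table with a window, 6 held it (7.06%): SLC3A2, SLC7A1, SLC38A1, SLC39A11, SLC25A11 and SLC23A3. A match describes the letters and does not show that a factor binds there.

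Libraries held 786623 to 2282615 assigned reads. VIM, CD44 and AXL, which mark this mesenchymal line, were present, and ESR1 and PGR were at 0 in all nuclear and cytoplasmic libraries. For 16 members in LM2 and Par libraries, 15 in knockdown libraries and 19 in the T4 series, reads came mostly from entries with non-whole counts, where the authors' quantification split reads between entries with shared sequence. These members included SLC25A18, SLC28A2, SLC30A2, SLC26A4, SLC47A2, SLC23A3, SLC35G2, SLC44A5, SLC2A3 and SLC9A4, and their values are uncertain. Their summed share varied from library to library, and not every member followed it. SLC9A4, for one, was lower in LM2 nuclear library 2 than in the other LM2 nuclear libraries. In the LM2 and Par table these members together took 1.25% of the reads of LM2 nuclear library 2 and 1.20% of Par nuclear library 2. They took 0.144 to 0.442% in the other 4 nuclear libraries. In the T4 table they took 0.368 to 1.78%, with the highest share in T4 6 h library 3, the library with the fewest reads of that table (886934). The remaining members took 0.217% of that library, the lowest share among all 42. By mean level, the 10 highest members of the knockdown table were SLC1A5, SLC25A37, SLC20A1, SLC30A2, SLC39A1, SLC25A18, SLC2A4RG, SLC4A2, SLC25A3 and SLC28A2, of which SLC30A2, SLC25A18 and SLC28A2 had mostly shared sequence. In the other tables the 10 highest added SLC26A4, SLC25A26 and SLC7A5, the first 2 of them with mostly shared sequence. Counts are therefore also given without the members with mostly shared sequence.

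**Figure D1:**
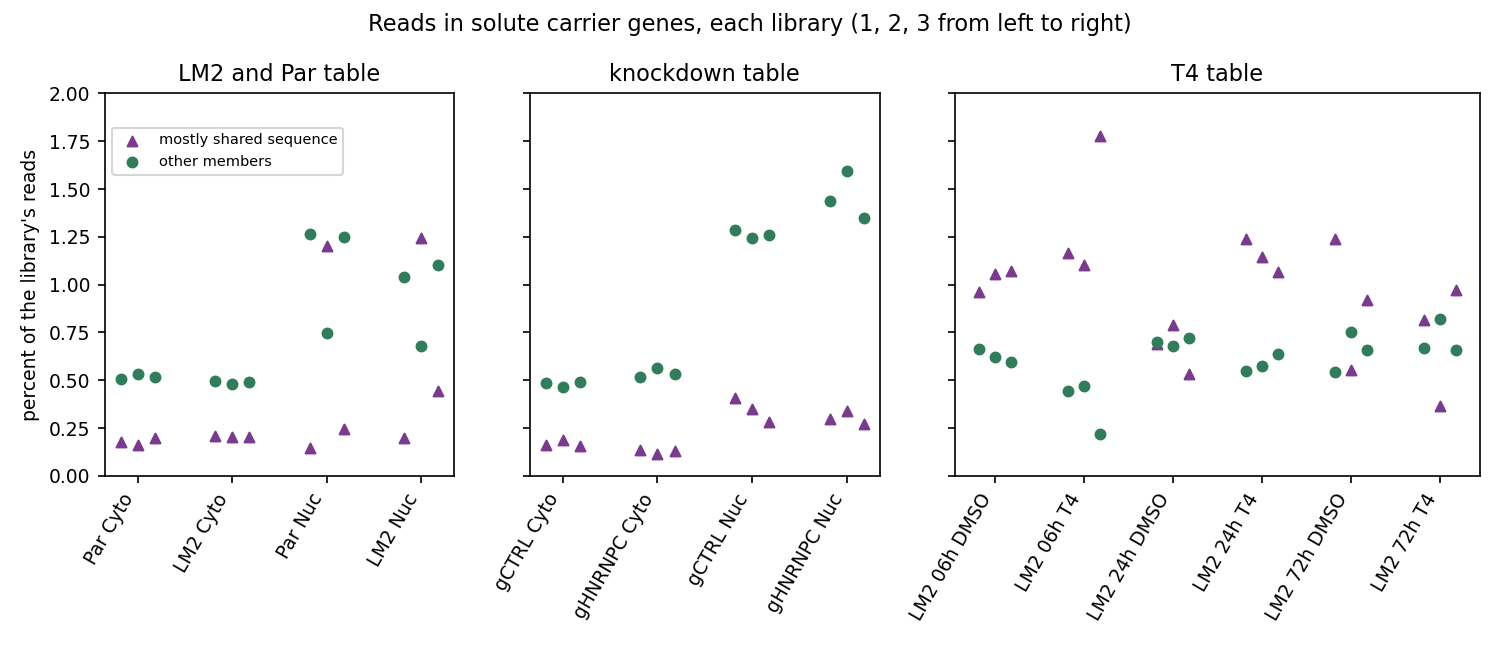
Percent of each library's reads in members whose reads came mostly from entries with shared sequence (triangles) and in all other members (circles), by group, with 3 libraries a group. The triangles of both nuclear libraries numbered 2 in the LM2 and Par table stand at 1.20 and 1.25%, and T4 6 h library 3 stands highest at 1.78%.

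After HNRNPC knockdown, transcripts of the amino acid transporters SLC3A2, SLC7A5 and SLC1A5 were higher in both fractions. In the cytoplasm 26 of 100 members were higher and 6 lower than in gCTRL cells, against 23.4% of all 9356 genes called, 11.7% in each direction. In the nucleus 18 were higher and 8 lower, against 8.43 and 5.71% of all genes. The median log2 difference over the members was 0.25 in the cytoplasm and 0.13 in the nucleus, beside 0.01 and 0.04 over all genes tested. No member with mostly shared sequence was higher in either fraction. HNRNPC itself was at 86.8, 113 and 99.8 CPM (counts scaled to a common library size, with TMM factors for library composition) in the cytoplasm of gHNRNPC cells and at 549, 490 and 496 in gCTRL cells, a log2 difference of -2.36. In the nucleus the difference was -2.44. In these bulk samples, fewer cells of a kind and less RNA per cell cannot be told apart.

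The 12 measured amino acid transporter genes all had a positive cytoplasmic difference, and 7 passed the test. In the nucleus 10 were positive and 5 passed. Their median log2 difference was 0.64 in the cytoplasm and 0.44 in the nucleus, and none was called lower in either fraction.

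SLC3A2 (chromosome 11, 62856102 to 62888875, GRCh38) rose most among them. Its cytoplasmic libraries held 84.6, 109 and 84.8 CPM in gHNRNPC cells and 14.1, 8.65 and 18.01 in gCTRL cells, and its nuclear libraries 838, 947 and 668 and 202, 190.1 and 237. All 3 knockdown libraries lay far above all 3 controls in each fraction. The log2 difference was 2.75 (SE 0.25, adjusted p = 3.8e-08) in the cytoplasm and 1.96 (SE 0.20, adjusted p = 3.6e-07) in the nucleus by edgeR's quasi-likelihood test. Its light chain SLC7A5 (chromosome 16, 87830023 to 87869488) was at 264, 195 and 168 CPM in gHNRNPC cytoplasm against 48.4, 69.7 and 57.3, and at 439, 356 and 480.3 in the nucleus against 118, 156 and 113. The groups did not overlap in either fraction, with a log2 difference of 1.83 (SE 0.21, adjusted p = 1.4e-06) in the cytoplasm and 1.72 (SE 0.21, adjusted p = 3.7e-06) in the nucleus. SLC7A11, the other measured light chain, was at 5.97, 9.20 and 2.999 CPM in gHNRNPC cytoplasm and 5.44, 3.78 and 3.79 in gCTRL cytoplasm. Its groups overlapped, and its differences of 0.45 (adjusted p = 0.53) and 0.45 in the nucleus (adjusted p = 0.39) did not pass.

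SLC1A5 (ASCT2; chromosome 19, 46774883 to 46788594), the glutamine importer and the most abundant member with mostly unique sequence in the knockdown table, was at 317, 456 and 376 CPM in gHNRNPC cytoplasm against 121, 89.2 and 118. In the nucleus it was at 3283, 4863 and 2740.3 against 1305, 976 and 1167. No libraries of the groups overlapped, and the log2 difference was 1.80 (SE 0.22, adjusted p = 3.0e-06) in the cytoplasm and 1.66 (SE 0.21, adjusted p = 9.3e-06) in the nucleus. SLC38A2 (SNAT2), a neutral amino acid importer, was at 119, 98.6 and 122 CPM in the cytoplasm against 61.4, 79.4 and 62.6, a difference of 0.74 (SE 0.19, adjusted p = 0.0059). In the nucleus the difference was 0.56 (SE 0.18, adjusted p = 0.037), which was lost in 11 of 13 alternative analyses.

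Of the remaining 7 transporters of the list, 3 passed in the cytoplasm and 1 in the nucleus. SLC38A1 (SNAT1) differed by 0.63 (SE 0.19, adjusted p = 0.019) in the cytoplasm and SLC7A1 (CAT1, arginine and lysine) by 0.65 (SE 0.21, adjusted p = 0.026). Neither passed in the nucleus, where the differences were 0.43 and 0.40 (adjusted p = 0.12 and 0.16). The cytoplasmic call was lost in 3 of 13 alternative analyses for SLC38A1 and in 5 of 13 for SLC7A1. SLC36A1, which exports small neutral amino acids from lysosomes, was at 10.8, 10.2 and 10.7 CPM in gHNRNPC cytoplasm against 4.89, 3.24 and 5.21, a difference of 1.23 (SE 0.34, adjusted p = 0.012). In the nucleus it was at 19.6, 16.7 and 15.1 against 22.2, 22.6 and 24.4, so all 3 knockdown libraries lay below all 3 controls there, and the difference of -0.43 did not pass (adjusted p = 0.37). SLC43A1 (LAT3) passed in the nucleus, at 0.68 (SE 0.22, adjusted p = 0.041), a call lost in 11 of 13 alternative analyses. Its cytoplasmic difference of 0.53 did not pass (adjusted p = 0.11). SLC6A9 (glycine), SLC38A7 (lysosomal glutamine) and SLC43A3 (a purine base carrier, listed here by its family number) passed in neither fraction, with cytoplasmic differences of 0.54, 0.35 and 0.42 (adjusted p = 0.22, 0.37 and 0.24).

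**Figure D2:**
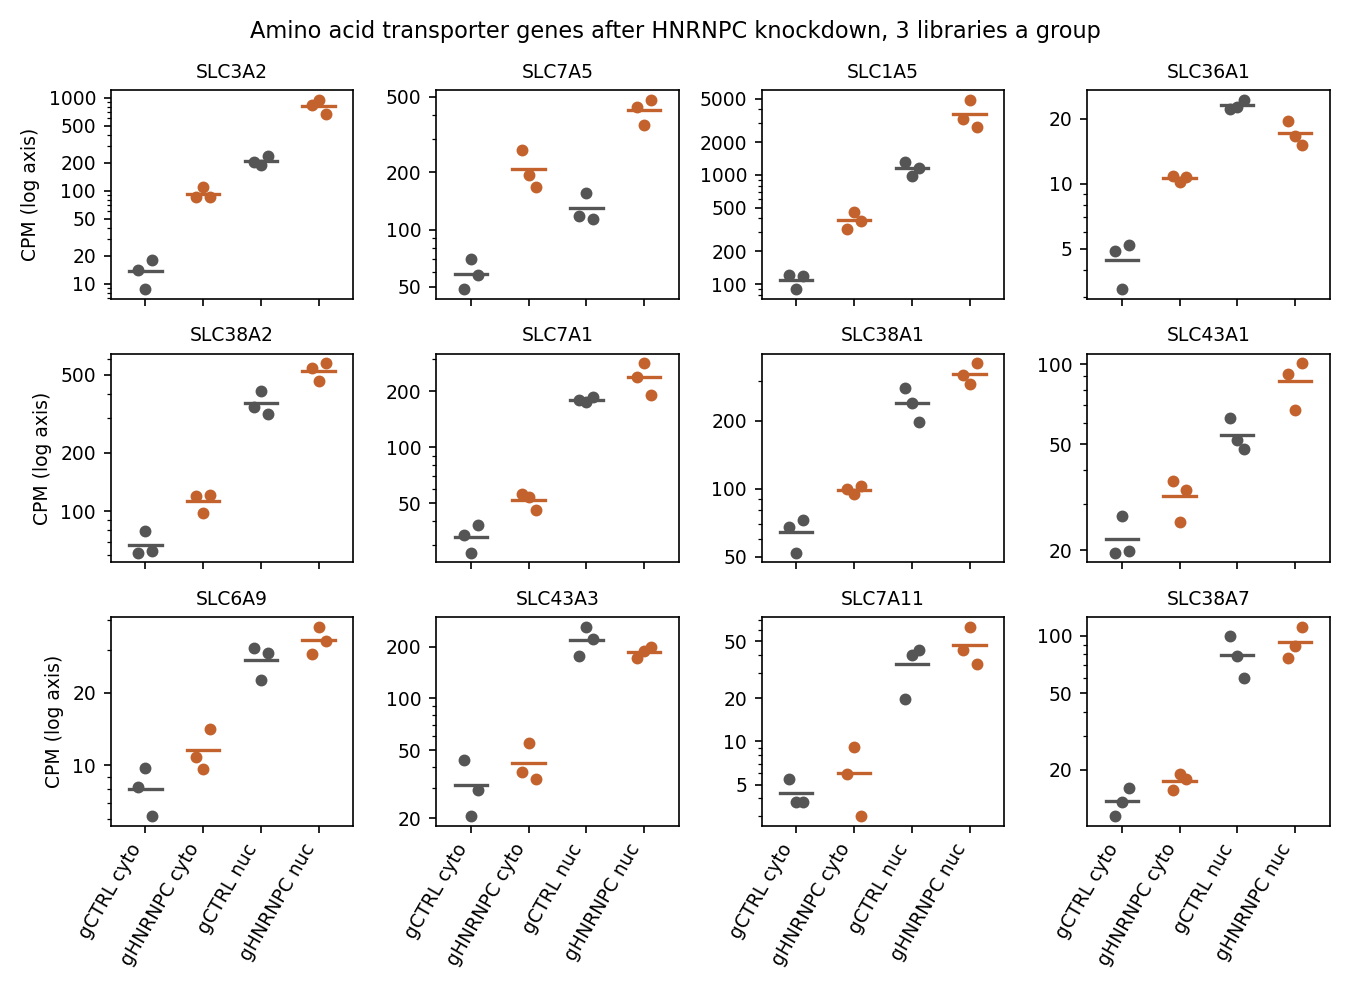
CPM of the 12 amino acid transporter genes in gCTRL (grey) and gHNRNPC (orange) libraries, cytoplasm and nucleus, on log axes. Points are the 3 libraries of a group and lines their means. For SLC3A2, SLC7A5 and SLC1A5 each knockdown group lies above its control with no overlap, whereas those of SLC7A11 overlap in both fractions.

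Genes of the amino acid response that are not carriers were also higher. Of 14 (ATF4, its partners and targets, and enzymes of serine and asparagine synthesis), 13 were higher in the cytoplasm and 12 in the nucleus, among them ASNS, TRIB3, CHAC1, PSAT1 and DDIT3. The medians were 1.39 and 1.74, and none was lower. Members that rose in the cytoplasm held the response element core in 4 of 22 matched promoters (18.2%), against 2 of 63 (3.17%) of those that did not. Of the 10 amino acid transporters with a window, 3 held it (30%). Their lists were chosen with results of these data known, so these shares describe the promoters and were not tested.

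Carriers of other molecules rose too. SLC6A8, the creatine transporter, was at 84.1, 57.2 and 74.5 CPM in gHNRNPC cytoplasm against 24.5, 26.5 and 10.9, and its nuclear groups did not overlap either. Its differences were 1.81 (SE 0.30, adjusted p = 1.5e-04) and 1.87 (SE 0.32, adjusted p = 2.8e-04); a near-identical copy of this gene elsewhere in the genome could share its reads. SLC35A2, which carries UDP-galactose into the Golgi, was at 9.76, 20.95 and 13.3 CPM against 1.63, 1.62 and 1.90 in the cytoplasm and differed by 3.04 (SE 0.49, adjusted p = 8.4e-05) there. In the nucleus it differed by 1.20 (SE 0.27, adjusted p = 0.0038). The gCTRL cytoplasmic level of SLC35A2 lay near the floor, so the size of its cytoplasmic difference is uncertain.

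SLC5A6, the multivitamin (biotin and pantothenate) transporter, rose by 1.17 in the cytoplasm and 1.32 in the nucleus on the log2 scale. SLC41A1 (magnesium) rose by 1.64 and 1.29, and SLC39A1 (zinc uptake) by 0.81 and 0.99. The SLC39 zinc importers SLC39A11 and SLC39A13 were also called higher in both fractions, as was SLC9A8, an endosomal and Golgi sodium-proton exchanger. The cytoplasmic calls added SLC35F3, which differed by 1.56, SLC35B2 (PAPS, the sulfate donor) by 1.26 with overlapping groups, and SLC8B1 (mitochondrial sodium-calcium exchange) by 1.10. The nuclear calls added SLC35C1 (GDP-fucose), SLC25A4 (ADP/ATP) and SLC25A14, at 0.93, 0.87 and 0.81.

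Fewer members fell. SLC27A1, a fatty acid transporter, was at 4.34, 2.04 and 2.57 CPM in gHNRNPC cytoplasm against 10.9, 13.5 and 14.7, a difference of -2.12 (SE 0.41, adjusted p = 5.5e-04), and at -1.54 in the nucleus. SLC25A6, an ADP/ATP carrier of the mitochondrial inner membrane, was at 40.1, 34.2 and 33.8 CPM against 126, 124 and 111, a difference of -1.74 (SE 0.21, adjusted p = 1.7e-06), and at -1.15 in the nucleus. Both had knockdown libraries wholly below control libraries in each fraction.

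SLC25A37 (mitoferrin, iron import into mitochondria) was at 488, 398 and 459 CPM in gHNRNPC cytoplasm against 845, 994 and 899, and differed by -1.03 there and -1.35 in the nucleus. SLC20A1, a sodium-phosphate importer, differed by -0.59 and -0.73. These 4 were all of the members called lower in both fractions. The nuclear calls added SLC9A7 (an organellar sodium-proton exchanger) at -1.52, SLC27A3 at -0.88, SLC37A2 at -0.86 and SLC15A4 (lysosomal histidine and peptides) at -0.74. The cytoplasmic calls added SLC30A2, with mostly shared sequence, at -1.04 and SLC2A4RG, a transcription regulator that is a member by symbol only, at -0.50.

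The calls in the fractions overlapped. Of the higher members, 13 were shared, 50% of the cytoplasmic and 72.2% of the nuclear list, and of the lower 4 (66.7 and 50%). None was called in opposite directions. How far the calls of all genes were shared between the fractions was not counted. No member's knockdown effect differed between fractions by edgeR's interaction test, beside 0.0214% of all genes (0.0107% in each direction), with 9 at an unadjusted p under 0.05 and 1 called by DESeq2. Scaling by library totals, which shifted the median of all genes to -0.07 in the nucleus and 0.15 in the cytoplasm, changed the nuclear split from 18 higher and 8 lower to 12 and 10. Beside these results, CD68, one of 3 immune markers, was higher in both fractions and CD14 in the nucleus, and MT-CO1 and MT-CYB were higher in the cytoplasm; their part was not tested.

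Transcripts of carriers outside the mitochondrial SLC25 family made up more of the nuclear than of the cytoplasmic reads. All members took 0.645 to 0.657% of the reads of a gCTRL cytoplasmic library and 1.54 to 1.69% of a gCTRL nuclear library. In gCTRL cells 72 of 100 members were higher in the nuclear libraries and 13 lower, against 33.9 and 27.6% of all genes. In Par cells 56 of 95 were higher and 10 lower, against 25.8 and 21.9%. The median log2 difference over members was 1.78 in gCTRL and 1.39 in Par cells, beside 0.06 and 0.07 over all genes tested. Without the members of mostly shared sequence, 62 of 85 were higher and 13 lower in gCTRL, and 49 of 79 higher and 10 lower in Par. A level here is a share of a fraction's own reads, not an amount of RNA per cell.

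No test was made between classes, whose counts and medians follow and carry the same limit of the minimum mean. All 12 amino acid transporters were higher in gCTRL nuclear libraries (median 2.42), and 9 of 11 were in Par (1.99) with none lower. Among carriers of inorganic ions and protons 13 of 14 were higher in gCTRL (median 2.67) and 11 of 13 in Par (2.63). Of the zinc transporters 8 of 10 were higher and 1 lower in gCTRL, and 7 of 11 higher and 2 lower in Par. Nucleotide sugar carriers of the SLC35 family had smaller medians, 1.21 and 0.85, with 9 and 8 of 13 higher and 1 lower in each. Mitochondrial SLC25 carriers were divided, with 5 of 19 higher and 8 lower in gCTRL (median -0.07) and 2 higher and 4 lower in Par (-0.30). Of the 5 members that are carriers by symbol only, 3 were lower in each line, with SLC9A3R1, a scaffold protein, and SLC2A4RG among them.

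**Figure D3:**
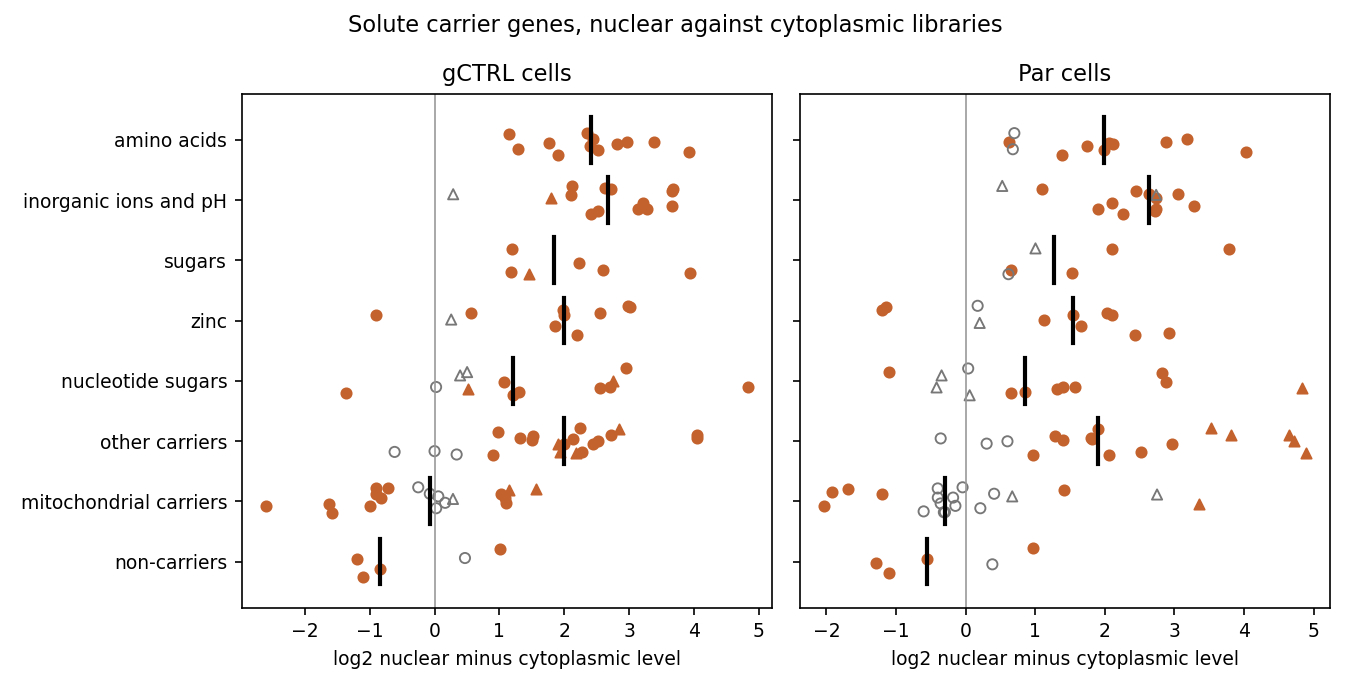
Log2 difference of nuclear over cytoplasmic level for each member, by class, in gCTRL and Par cells. Orange points passed edgeR's test, hollow points did not, triangles are members with mostly shared sequence, and bars are class medians, which lie at 0.85 or more for each carrier class shown but the mitochondrial one (-0.07 and -0.30).

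Single genes showed how far the fractions lay apart. SLC2A1 (GLUT1, the glucose importer; chromosome 1, 42925375 to 42959176) was at 207, 197 and 232 CPM in gCTRL nuclear and 11.4, 15.1 and 14.7 in gCTRL cytoplasmic libraries, and at 464, 407 and 429.7 and 30.6, 33.6 and 30.3 in Par. The nuclear libraries of each line were all above its cytoplasmic ones, and the log2 difference was 3.94 (SE 0.29, adjusted p = 4.0e-11) in gCTRL and 3.78 (SE 0.19, adjusted p = 3.6e-07) in Par. SLC3A2 differed by 3.93 (SE 0.25, adjusted p = 3.0e-12) in gCTRL and 4.03 (SE 0.23, adjusted p = 6.2e-07) in Par. SLC16A3 (MCT4, the lactate exporter) was at 217, 156 and 109 CPM in gCTRL nuclei against 9.24, 8.11 and 11.4, a difference of 4.05. The largest difference in gCTRL was that of SLC35A2, at 53.2, 36.2 and 63.995 CPM against 1.63, 1.62 and 1.90, 4.83 (SE 0.43, adjusted p = 1.0e-09). Its cytoplasmic level lay near the floor, so the size of this difference is uncertain. Its reads came mainly from nuclear libraries, which carried it to the minimum mean of a member.

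The reverse held for named mitochondrial carriers. SLC25A23, an ATP-magnesium and phosphate carrier, was at 21.6, 12.3 and 12.5 CPM in gCTRL nuclear and 89.7, 79.4 and 113 in cytoplasmic libraries, a difference of -2.60 (SE 0.25, adjusted p = 3.0e-09), and at -2.04 in Par. SLC25A39, the mitochondrial glutathione carrier, was at 103, 70.5 and 93.02 CPM against 254, 313 and 234, a difference of -1.58 (SE 0.20, adjusted p = 2.9e-07), and at -1.69 in Par. Nuclear libraries were lower than all cytoplasmic ones for each. SLC25A6 was lower in gCTRL nuclei (-1.63), but in Par its difference of -0.40 did not pass (adjusted p = 0.074). SLC25A37 went the other way in gCTRL, 1.09. Outside the SLC25 family, SLC35A4 of the SLC35 family (-1.36) and the zinc carrier SLC30A9 (-0.90) were the 2 carriers lower in gCTRL nuclear libraries.

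The lines shared most of these calls. Of 92 members measured in both, 55 were called higher in both, 98.2% of the Par list and 76.4% of the gCTRL list. The lower lists shared 8 members, 80% of Par's and 61.5% of gCTRL's, and no member was called in opposite directions. How far the calls of all genes were shared between these lines was not counted. The 4 largest differences in Par were those of SLC23A3 (4.88), SLC35G2 (4.83), SLC44A5 (4.71) and SLC22A18 (4.64), all with mostly shared sequence. For SLC25A18, the Par nuclear libraries held 261, 7098 and 726 CPM, so that library 2 stood alone. Without that library 48 members were higher and 10 lower in Par.

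Markers of the fractions were measured beside these results. Of the 2 nuclear RNAs listed, NEAT1 was at 0 CPM in all Par libraries and at most 1.90 in gCTRL libraries, too low to be tested. MALAT1, the other, was higher in nuclear libraries of both lines (3.26 in gCTRL and 2.34 in Par). The 3 mitochondrially encoded transcripts listed as cytoplasmic (MT-CO1, MT-ND4 and MT-CYB) were also all higher there, with medians of 6.02 and 3.25, as were VIM, CD44 and AXL (medians 2.48 and 2.38) and BSG, the membrane partner of the lactate carriers (4.51 and 4.09). Amino acid response genes outside the carriers were lower in the nucleus for 8 of 14 in gCTRL and 5 of 13 in Par. The nuclear libraries thus also held mitochondrial RNA, and its part in the result was not tested.

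Several transporters were lower with T4 at 6 h, and none passed at 72 h. At 6 h 2 of 88 members were higher and 13 lower, against 3.41 and 12.6% of all 8039 genes, so the lower share was near the background. At 24 h 1 was higher and 8 lower, against 5.24% of all genes called (2.2 and 3.04%). At 72 h none passed edgeR's test, with 0.261% of all genes called (0.0995% higher and 0.162% lower), 7 members at an unadjusted p under 0.05 and 1 called lower by DESeq2. No member was called at both 6 and 24 h. Leaving out the members with mostly shared sequence, 0 were higher and 13 of 69 lower at 6 h. The 2 called higher at 6 h, SLC9A4 and SLC2A3, belong to those members, of which 18 of 19 had a positive difference at 6 h (median 1.02), 19 at 24 h (0.86) and 1 at 72 h.

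SLC20A1 (chromosome 2, 112645857 to 112663827), the phosphate importer, fell most at 6 h. It was at 102, 95.1 and 40.8 CPM with T4 and 365, 329 and 349 with DMSO, groups that lay far apart, with a log2 difference of -2.09 (SE 0.25, adjusted p = 2.7e-05). At 24 h it was at 238, 247 and 272 against 385, 358 and 405, and at 72 h at 464, 362 and 456 against 647, 692 and 667. The T4 libraries were below all DMSO libraries at both later times, but the differences of -0.60 and -0.65 did not pass (adjusted p = 0.14 and 0.38). SLC20A1 kept its 6 h call in all alternative analyses, and without T4 library 3 the difference was -1.81. The T4 effect at 72 h differed from that at 6 h for 7 members, beside 9.39% of all genes (7.87% with a higher effect at 72 h and 1.52% with a lower), and was 1.45 (SE 0.34, adjusted p = 0.012) for SLC20A1.

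Amino acid transporters were called lower at 6 h and none of them at the later times. All 11 measured had a negative difference at 6 h (median -0.67) and 5 passed, whereas 7 were positive at 24 h (median 0.25) and 10 at 72 h (0.24). Over all genes the 6 h median was -0.11, and 12.6% were called lower. All members without mostly shared sequence together took 0.443, 0.472 and 0.217% of reads with T4 at 6 h. With DMSO they took 0.664, 0.621 and 0.597%. These sums include the amino acid transporters and are shares of library totals without TMM factors. Whether the lower 6 h level was particular to amino acid transporters was not tested. SLC7A11 was at 29.1, 29.8 and 4.53 CPM with T4 against 47.5, 56.6 and 45.5 at 6 h, a difference of -1.07 (SE 0.34, adjusted p = 0.041). At 24 h it was at 56.6, 50.02 and 60.8 against 43.2, 22.8 and 28.05, with all T4 libraries now above the DMSO libraries, and the difference of 0.83 did not pass (adjusted p = 0.12). SLC36A1 was at 13.6, 5.60 and 0 CPM against 27.7, 23.9 and 14.3 at 6 h, -1.48 (SE 0.47, adjusted p = 0.038), and SLC3A2 at 89.9, 94.2 and 29.4 against 158, 152 and 125, -0.96 (SE 0.30, adjusted p = 0.034). In each of these 3, library 3 was the lowest of the T4 group. Without it none passed: SLC7A11 differed by -0.75 (adjusted p = 0.067), SLC36A1 by -1.16 (0.071) and SLC3A2 by -0.65 (0.065).

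SLC38A7 (-1.07, adjusted p = 0.024) and SLC43A1 (-0.77, adjusted p = 0.041) were the other amino acid transporters called lower at 6 h. SLC7A5 was at 259, 302 and 197 CPM with T4 against 379.5, 366 and 314 at 6 h and at 557, 547 and 432 against 283, 329 and 386 at 24 h. Its T4 libraries were thus below all controls at 6 h and above them at 24 h, but neither difference passed (-0.48, adjusted p = 0.11; 0.62, adjusted p = 0.074). SLC38A2 alone was called higher at 24 h, at 115, 97.8 and 94.01 CPM against 58.4, 51.8 and 71.1, 0.76 (SE 0.19, adjusted p = 0.025). That call was lost in 6 of 13 alternative analyses. Of 13 amino acid response genes outside the carriers, CHAC1, DDIT3 and TRIB3 were lower at 6 h and none higher.

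Carriers of other molecules were also called at 6 h. SLC35C1, the Golgi GDP-fucose carrier, was at 16.3, 4.66 and 15.9 CPM with T4 against 47.5, 26.3 and 31.2, -1.58 (SE 0.35, adjusted p = 0.0052). SLC25A37 was at 259.8, 284 and 383 against 536, 549 and 507, -0.79 (SE 0.19, adjusted p = 0.01). In both the groups did not overlap. SLC9A8 differed by -1.24 with overlapping groups, SLC45A3 by -1.02, SLC26A2 (sulfate) by -0.97 and SLC4A7 (sodium bicarbonate) by -0.82. Among the members called higher, SLC9A4, a sodium-proton exchanger with mostly shared sequence, was at 46.3, 51.3 and 58.9 CPM against 14.3, 15.2 and 12.99, 1.86 (SE 0.25, adjusted p = 8.2e-05).

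At 24 h the lower calls were mostly mitochondrial and metal carriers. SLC25A6 was at 15.9, 17.4 and 17.8 CPM with T4 against 35.6, 48.1 and 39.9, -1.27 (SE 0.22, adjusted p = 0.0041), the only 24 h call kept in all alternative analyses. At 6 h it differed by -0.04 and at 72 h by -0.59 (adjusted p = 0.33). SLC25A11 (oxoglutarate-malate), SLC25A10 (dicarboxylates) and SLC25A23 differed by -1.30, -1.14 and -1.02. Their calls were lost in 5, 7 and 4 of 13 alternative analyses. With SLC25A6, 4 of 16 SLC25 genes were called lower, beside 3.04% of all genes. The zinc carriers SLC30A9 and SLC39A9 differed by -1.48 and -0.77, and the lactate carrier SLC16A3 by -0.89. SLC2A4RG, not a carrier, was at 102, 121 and 144 CPM against 276, 308 and 272, -1.22 (SE 0.28, adjusted p = 0.015).

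**Figure D4:**
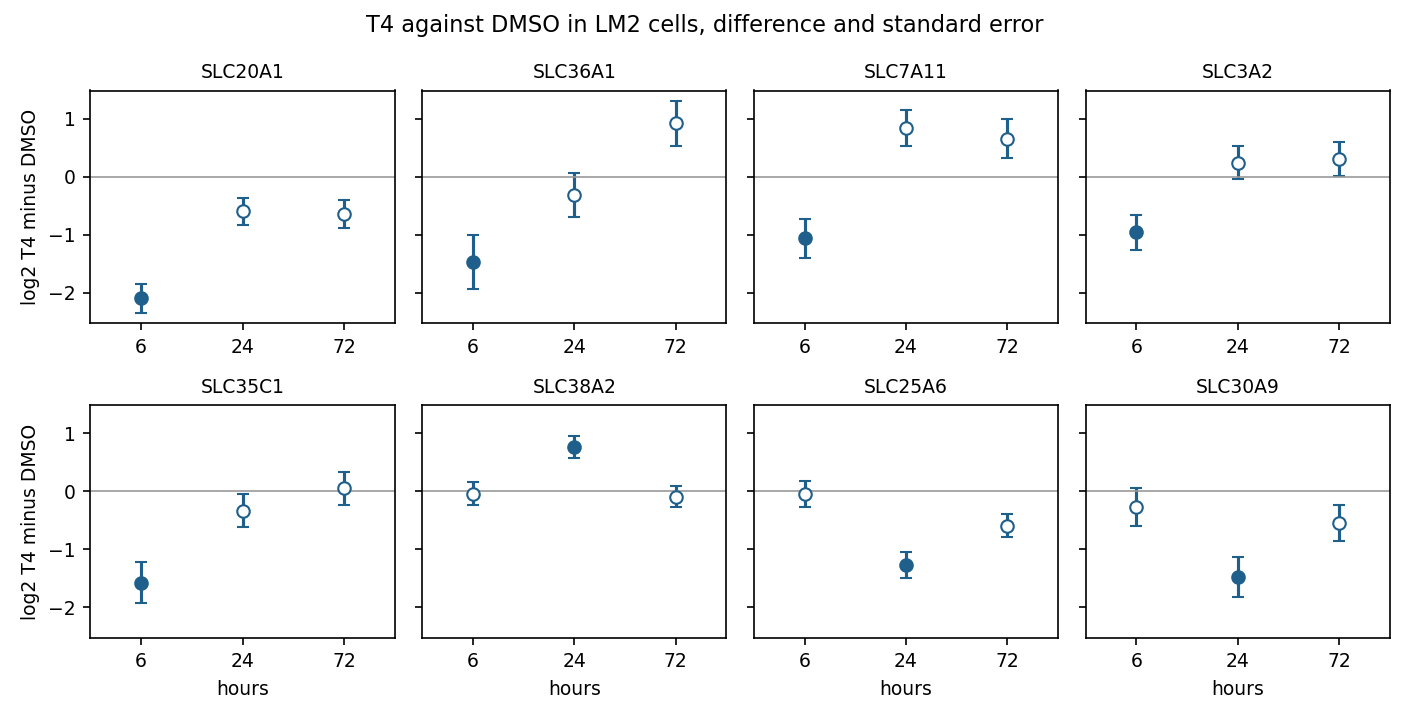
Log2 difference of T4 over DMSO with its standard error for 8 members at 6, 24 and 72 h in LM2 cells. Filled points passed edgeR's test. SLC20A1, SLC36A1, SLC7A11, SLC3A2 and SLC35C1 are filled only at 6 h, and SLC38A2, SLC25A6 and SLC30A9 only at 24 h.

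These counts rested on few libraries. Scaling by library totals moved the median of all genes to -0.51 at 6 h, beside -0.11 with the scaling used, and -0.18 and 0.15 at 24 and 72 h. The 6 h count of 15 called members was 7, 6 and 7 without DMSO library 1, 2 or 3, and the 24 h count of 9 was 1 without T4 library 1 or 2, 4 without DMSO library 1 and 2 without DMSO library 2. At 24 h MALAT1 was higher and AXL lower with T4, and their part was not tested.

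Few members differed between LM2 and Par cells, and SLC2A1 and SLC37A2 were the members called lower in LM2 in both fractions. In the cytoplasm 4 of 95 were higher in LM2 and 9 lower, against 3.95 and 6.93% of all 8547 genes. In the nucleus 1 was higher and 3 lower, against 1.15 and 1.08%. The members' median log2 difference was 0.11 in the cytoplasm and -0.07 in the nucleus, beside -0.02 and 0.01 over all genes.

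SLC2A1 was lower in LM2 cells in both fractions. Its cytoplasmic libraries held 14.1, 11.8 and 10.3 CPM in LM2 and 30.6, 33.6 and 30.3 in Par cells, and its nuclear libraries 180.2, 124 and 169 and 464, 407 and 429.7. All LM2 libraries were below all Par libraries, and the log2 difference was -1.38 (SE 0.19, adjusted p = 0.0025) in the cytoplasm and -1.46 (SE 0.18, adjusted p = 0.0017) in the nucleus. The call was lost with library totals in the cytoplasm (adjusted p = 0.053) and, with adjusted p up to 0.091, with library totals and with only the 2 groups fitted in the nucleus. SLC37A2, a sugar-phosphate exchanger of the endoplasmic reticulum (chromosome 11, 125063067 to 125090312), was at 5.77, 10.5 and 8.003 CPM in LM2 against 21.99, 20.1 and 22.6 in Par cytoplasm, and at 11.6, 12.01 and 16.7 against 68.2, 67.996 and 51.3 in the nucleus. Its groups did not overlap either, with differences of -1.40 (SE 0.25, adjusted p = 0.0084) and -2.19 (SE 0.25, adjusted p = 0.0011), which were kept in all alternative analyses.

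SLC43A3, the purine base carrier, was at 27.6, 19.8 and 24.6 CPM in LM2 against 64.2, 82.5 and 48.4 in Par cytoplasm, with no overlap and a difference of -1.44 (SE 0.24, adjusted p = 0.0066). In the nucleus its difference of -0.73 did not pass (adjusted p = 0.16). SLC35A2 was at 6.41, 4.33 and 3.43 against 14.7, 17.3 and 10.5 CPM in the cytoplasm, -1.58 (SE 0.29, adjusted p = 0.0095), and at 0.19 in the nucleus (adjusted p = 0.86). The other cytoplasmic calls were smaller or rested on fewer analyses. Lower in LM2 were SLC9A3R2 (-1.17, a scaffold and not a carrier), SLC17A9 (-1.03, vesicular nucleotides), SLC4A2 (-1.03, anion exchange), SLC39A9 (-0.91, zinc) and SLC1A5 (-0.67). Higher were SLC27A3 (1.62), SLC26A6 (1.17, anion exchange), SLC5A6 (0.87) and SLC25A29 (0.62, mitochondrial basic amino acids). Each of these 9 lost its call in 4 to 10 of 14 alternative analyses.

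In the nucleus, SLC48A1, a heme transporter, was lower in LM2 (-1.35 (SE 0.27, adjusted p = 0.026)), and SLC45A3 was higher (1.00 (SE 0.23, adjusted p = 0.047)). With replicate numbers as a block, which pair these nuclear libraries, SLC2A1 and SLC37A2 passed and the other 2 did not, and so it was without both nuclear libraries numbered 2. No member's difference depended on the fraction by edgeR's interaction test, in which 0 of all genes passed, with 12 members at an unadjusted p under 0.05 and 0 called by DESeq2. The cytoplasmic split of 4 higher and 9 lower became 7 and 6 with median-of-ratios scaling, 8 and 8 with DESeq2, and 0 and 2 with library totals. Beside these results, COL1A1, 1 of 4 fibroblast or endothelial markers, was higher in LM2 in both fractions, and ATF4, CEBPB, PHGDH and SHMT2 of 13 amino acid response genes in the cytoplasm; their part was not tested.

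The use of alternative ends was tested for members with at least 2 entries averaging 10 or more reads, by the share of reads at the second most used entry. Of 17 members tested between LM2 and Par cells none passed edgeR's test in either fraction, with 0 and 1 at an unadjusted p under 0.05; this test was not run in DESeq2. After HNRNPC knockdown 3 of 21 passed in the cytoplasm, against 11.6% of all 1169 genes, and 2 of 21 in the nucleus, against 3.68%. With T4, 1 of 12 passed at 6 h, against 5.45% of 807 genes, and none at 24 or 72 h, with 2 and 0 at an unadjusted p under 0.05.

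SLC38A2 (chromosome 12, 46358189 to 46372867) changed in opposite directions with the knockdown and with T4 at 6 h. Its first entry is the annotated end of transcript SLC38A2-201, and its second a position the authors listed under that transcript, whose build could not be matched to GRCh38, so that its place is not given. The second end took 6.9, 5.3 and 10.4% of the reads of both in gHNRNPC cytoplasm and 24.5, 16.6 and 24.8% in gCTRL. The groups did not overlap, and the log2 change of the ratio of second to first end was -1.76 (SE 0.35, adjusted p = 0.0025). In the nucleus it took 9.6, 9.2 and 10.9% against 20.5, 18.2 and 19.4%, a change of -1.13 (SE 0.29, adjusted p = 0.033), a call lost in 8 of 9 alternative analyses. With T4 at 6 h it took 77.5, 70.2 and 63.6% against 41.5, 23.6 and 19.8% with DMSO, a change of 2.70 (SE 0.43, adjusted p = 3.7e-04), with an adjusted p of 0.051 when only these 6 libraries were fitted. At 24 h it took 16.9, 20.6 and 26.7% against 18.9, 27.7 and 17.9%, which overlapped. SLC38A2's total level at 6 h differed by -0.05 (adjusted p = 0.9). Its second end averaged under 50 reads over the libraries of the T4 series.

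**Figure D5:**
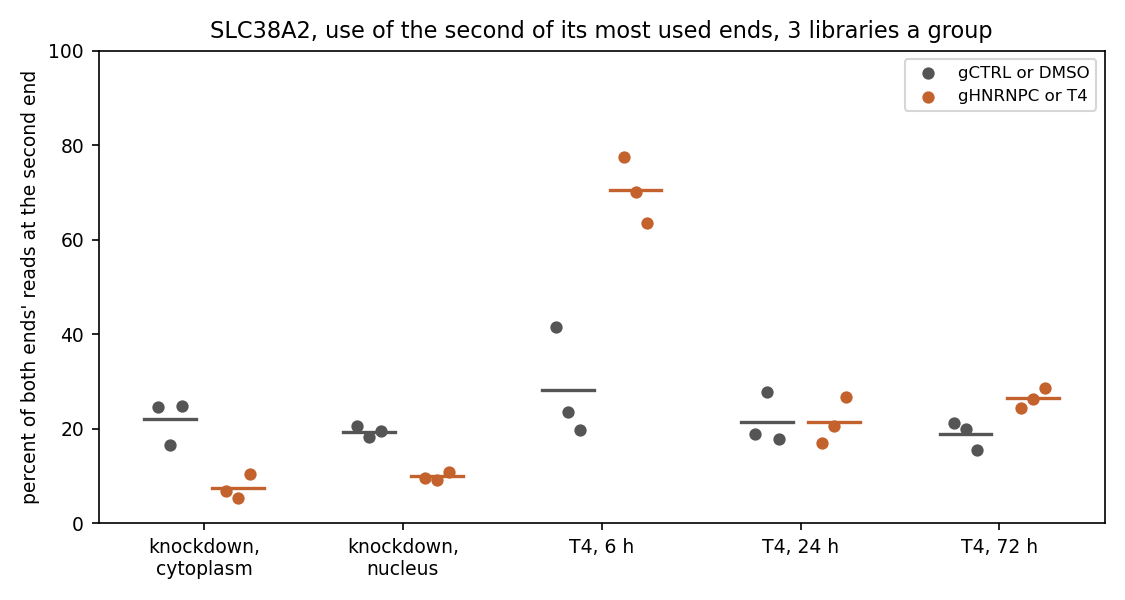
Percent of the reads at SLC38A2's 2 most used ends that lay at the second, in control (grey) and gHNRNPC or T4 (orange) libraries, 3 a group with the mean as a line. The T4 libraries at 6 h (63.6 to 77.5%) lie above all others, and the gHNRNPC libraries lie below their controls in both fractions.

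SLC35C2, a member of the SLC35 family, and SLC48A1 used the annotated end that was second more after the knockdown. The second end of SLC35C2 took 21.3, 14.8 and 19.7% in gHNRNPC nuclear libraries against 3.4, 2.5 and 1.5% in gCTRL, a change of 3.11 (SE 0.56, adjusted p = 0.0034). In the cytoplasm it took 12.3, 16.9 and 5.1% against 1.5, 3.8 and 0%, a change of 2.59 (SE 0.72, adjusted p = 0.022), a call lost in 4 of 8 alternative analyses (only the 2 groups fitted, or without gCTRL library 1 or 3 or gHNRNPC library 2, with adjusted p up to 0.098). For SLC48A1 the second end took 55.3, 56.2 and 71.2% in gHNRNPC cytoplasm against 14, 24.6 and 35.7% in gCTRL, a change of 2.34 (SE 0.55, adjusted p = 0.0087), a call lost in 2 of 8 alternative analyses (without gCTRL library 1 or gHNRNPC library 3, with adjusted p up to 0.068). All these groups were apart. The second ends of SLC35C2 and SLC48A1 averaged under 50 reads over the knockdown libraries, so their low control shares rest on few reads. The nuclear change of SLC48A1, 2.01, did not pass (adjusted p = 0.093).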

How the data were processed

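Values were expected counts per transcript end or position, made by the authors with Salmon 0.14.1 on hg38, per the submitters' processing notes, in 3 deposited tables (no sample column was left unused). Entries were summed by gene through GENCODE 29, a position with the transcript listed above it, and rounded to whole numbers; 0.919 to 4.13% of a library's reads lay in entries with no matched gene and were left out. Gene counts were filtered (filterByExpr), scaled (TMM) and tested with edgeR 4.0.16's quasi-likelihood test in R 4.3.3, all groups of a table in 1 fit, with Benjamini-Hochberg adjustment over all genes tested and a threshold of 0.05. Levels are CPM on TMM-scaled library sizes. An SE is the log2 difference divided by the root of F. End use was tested as the interaction of entry and group over each gene's 2 most used entries. The scripts were tested on simulated data. Alternatives were median-of-ratios and library-total scaling, no filter, DESeq2 1.42.0, the replicate block, leaving out entries with non-whole values, fitting only the groups compared, leaving out each library or both nuclear libraries numbered 2, and other count minimums.

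The members and lists were chosen with earlier results of these data known. Classes follow family numbers. Named were the 10 called members with the largest change in each direction, all amino acid transporters after knockdown, the 10 highest members of each table and every called change of end use. Genes named beyond this (such as SLC8B1, SLC9A8, SLC25A4 and SLC25A14 after knockdown, and SLC43A1 and SLC4A7 with T4) were chosen after their values were seen. Same-numbered libraries deviated together, with every pair's correlation over 0.1, between LM2 and Par nuclei (0.64, 0.76 and 0.16) and between T4 and DMSO at 72 h (0.29, 0.64 and 0.14). Results of 1 member are not reported by name here. Promoter windows came from RefSeq, and 85 of 100 members of the knockdown table were matched by symbol.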

Additional observations from a re-analysis of the deposited data

Results flagged for a closer look

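The T4 effect differed between 72 h and 6 h, by edgeR's test of the difference of the differences with adjustment over all genes, for 7 of 88 members, beside 9.39% of all genes (7.87% with a higher and 1.52% with a lower effect at 72 h). The differences, 72 h minus 6 h, were 2.39 for SLC36A1 (adjusted p = 0.019), 1.72 for SLC7A11 (0.033), 1.63 for SLC35C1 (0.033), 1.45 for SLC20A1 (0.012) and 1.21 for SLC45A3 (0.048). In these 5 the T4 effect was lower at 6 h than at 72 h. In SLC9A4, with mostly shared sequence, it was higher at 6 h, with a difference of -1.91 (0.0036). SLC20A1 and SLC9A4 kept this call in each alternative analysis that tested them, and the other named members did not. The causes were not tested.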

How the results depend on the processing

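Of 264 counts of called members under alternatives, 201 were within 1.5 times the reported count. Of 1878 values of named genes, 1535 kept direction and side of the threshold and 341 lost the call. SLC7A11 after knockdown in the cytoplasm ran from -0.038 without gHNRNPC cytoplasmic library 2 to 0.81 without library 3, and so changed sign. All 20 named fraction differences in gCTRL were kept under every alternative, and 10 of 20 in Par. Alternatives were planned, and causes were not tested beyond fewer genes or libraries.

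Counts that moved were as follows. LM2 against Par in the cytoplasm (13): 2 with library totals, 7 with no filter, 23 without non-whole entries, 34 with only the 2 groups, 8 at a gene mean of 50. LM2 against Par in the nucleus (4): 1 with library totals, 2 with no filter, 2 with the replicate block, 1 with only the 2 groups, 2 without both nuclear libraries numbered 2, 1 at a gene mean of 50. T4 at 6 h (15): 24 with no filter, 9 without non-whole entries, 2 with only the 2 groups, 6 at a mean of 50. T4 at 24 h (9): 17, 32 and 5 with no filter, only the 2 groups and a mean of 50. T4 at 72 h (0): 1 with DESeq2. T4 effect at 72 h minus 6 h (7): 20 with library totals, 20 with no filter, 4 without non-whole entries, 1 at a mean of 50. Par nucleus against cytoplasm (66): 37 at a mean of 50, with fewer members. Knockdown effect between fractions (0): 1 with DESeq2. End use: LM2 against Par cytoplasm 2 with only the 2 groups, T4 at 6 h 0 at an entry mean of 50 and with only the 2 groups, knockdown cytoplasm 1 at an entry mean of 50, knockdown nucleus 1 with the replicate block and with only the 2 groups. At an entry mean of 50, SLC38A2 with T4 and SLC35C2 and SLC48A1 after knockdown had too few reads to be tested. Their calls were thus not retested at that minimum.

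Leaving out 1 library gave 3 to 11 (LM2 against Par cytoplasm), 2 to 4 (nucleus), 56 to 64 (Par fractions), 82 to 86 (gCTRL fractions), 22 to 31 and 14 to 22 (knockdown cytoplasm and nucleus), 6 to 12, 1 to 6 and 0 to 0 (T4 at 6, 24 and 72 h), 3 to 11 (T4 at 72 h minus 6 h), 0 to 0 (both differences between fractions), and for end use 1 to 3 and 1 to 1 (knockdown), 1 to 1 (T4 at 6 h) and 0 to 0 elsewhere. The 26 nuclear knockdown calls became 14 without gCTRL library 2 and 15 without gHNRNPC library 2. With the replicate block, counts in comparisons whose numbers did not pair libraries were 10 (LM2 against Par cytoplasm), 27 and 20 (knockdown), 11 and 8 (T4 at 6 and 24 h), 61 (Par fractions) and 85 (gCTRL fractions); in the paired T4 comparison at 72 h it was 0. At 786623 to 2282615 reads a library, members averaging near 20 reads could show only large differences.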
